A study of Homo sapiens with 8 samples.

Results

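TGM2, MYL9, ACTA2, TAGLN, CNN1, CNN2, TPM1, TPM2 and THBS1 are 9 contractile and matrix genes that are linked to TGF-beta signalling and to serum response factor (SRF). They were selected by symbol from the 58233 genes of a table of RNA-seq counts, and the selection used measured values, since TGM2 and MYL9 were chosen for being lower in RBM6-KO1 cells. For this reason their differences between genotypes are described below without a test, and only their response to ionizing radiation (IR) is tested. The cells were MCF10A-Hras, human mammary epithelial cells of the MCF10A line into which an HRAS oncogene was introduced, a change that all groups share. The 4 groups were control cells (genotype label WT) and RBM6-KO1 cells, each either untreated or exposed to 5 Gy of X-rays and left to recover for 12 h, with 2 biological replicates, A and B, in each group. RBM6-KO1 is 1 clone, obtained with a Cas9 nickase and a pair of guides to exon 3 of RBM6, so that clone and genotype cannot be told apart. The cells grew in DMEM-F12 with horse serum, EGF, hydrocortisone, cholera toxin and insulin.

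The contractile apparatus of non-muscle cells consists of actin filaments and myosin II, whose activity is switched by phosphorylation of its regulatory light chain. Tropomyosins, calponins and transgelins bind along the actin filaments and set their stability and their access to myosin. Many of these genes are transcribed by SRF with its MRTF cofactors, which bind the CArG box, and are raised by TGF-beta in fibroblasts and myoepithelial cells. Transglutaminase 2 (TGM2) cross-links matrix proteins and binds integrins and fibronectin, and thrombospondin 1 (THBS1) is a matrix glycoprotein that can release TGF-beta from its latent complex.

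Each library held between 15355281 and 29832009 counts on genes, and control IR replicate B was the deepest. Levels are given as normalized CPM, the counts scaled to a common library size by the trimmed mean of M-values (TMM) over the 8 libraries, and a count of 3, the limit that a count of 0 allows, corresponds to between 0.0966 and 0.204 normalized CPM. This limit covers counting error only. RBM6 itself was measured at 67.9 ± 1.35 normalized CPM (SD, n = 2) in control cells before IR and at 62.4 ± 1.18 in RBM6-KO1 cells before IR, a log2 fold change of -0.14 (SE 0.15, adjusted p = 0.712 from edgeR), so that its gene counts do not show the deletion. The 5 basal epithelial markers (KRT5, KRT14, KRT17, TP63 and ITGA6) summed to between 1587 and 2306 normalized CPM in every library, while the 3 leukocyte markers had at most 3 counts each and the 4 smooth muscle markers summed to between 1.57 and 3.62. The basal sums were 1612 to 1876 in untreated control cells and 1686 to 2020 in untreated RBM6-KO1 cells. Of the basal markers only KRT14 had an adjusted p under 0.05 between untreated genotypes, and it was higher (log2 fold change 0.78, SE 0.19, adjusted p = 0.0156 from edgeR). After IR the basal sums were 2124 to 2306 in control cells and 1587 to 1674 in RBM6-KO1 cells. KRT14 was then higher at 0.75, while KRT5, KRT17, TP63 and ITGA6 were lower at -0.47, -0.37, -0.32 and -0.52. None of these passed after IR. The 4 epithelial markers summed to between 716 and 775 normalized CPM in untreated control cells and to 449 to 563 in untreated RBM6-KO1 cells. EPCAM fell from 24.1 ± 3.74 to 7.03 ± 0.634 (SD, n = 2, -1.79, SE 0.22, adjusted p = 4.43e-05). CDH1, KRT8 and KRT18 were lower by less, at -0.47, -0.46 and -0.63 (SE 0.22, 0.14 and 0.15). Their adjusted p-values were 0.267, 0.0626 and 0.0175 from edgeR, so that only KRT18 passed the adjusted p. The 6 fibroblast markers summed to between 81.0 and 81.6 and between 119 and 155 in the same groups, with COL1A2 and COL3A1 at no more than 3 counts in any library. DCN, which encodes the matrix proteoglycan decorin, carried the higher sum, with 68.1 ± 2.03 normalized CPM (SD, n = 2) in control cells against 129 ± 23.7 in RBM6-KO1 cells. COL1A1, a chain of the fibroblast collagen I, was at 12.96 ± 2.005 against 7.78 ± 2.05, a log2 fold change of -0.74 that did not pass (SE 0.24, adjusted p = 0.0864 from edgeR). After IR the epithelial sums were 498 to 670 in control cells and 376 to 440 in RBM6-KO1 cells, and the fibroblast sums 91.1 to 108 and 173 to 211, with DCN at 86.3 ± 11.1 against 186 ± 26.6 and COL1A1 at 11.8 ± 0.341 against 5.25 ± 0.269. EPCAM was then at 20.6 ± 1.36 in control cells against 5.82 ± 0.747 in RBM6-KO1 cells (-1.82, SE 0.22, adjusted p = 0.0151 from edgeR). DCN had 1.11 after IR (SE 0.18, adjusted p = 0.0389) and COL1A1 -1.17 (SE 0.22, adjusted p = 0.0612). The endothelial marker PECAM1 was higher in RBM6-KO1 cells but did not pass. It had 1.16 untreated (SE 0.36, adjusted p = 0.0681) and 1.56 after IR (SE 0.32, adjusted p = 0.0865). The part of these shifts in the differences described below was not tested, and in bulk RNA fewer cells of a kind and less RNA per cell cannot be told apart.

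TGM2 (ENSG00000198959) lies on chromosome 20 (38127385 to 38166578 in GRCh38, minus strand). It was measured at 627 and 486 normalized CPM in untreated control cells and at 128 and 98.7 in untreated RBM6-KO1 cells. After IR it was at 806 and 693 in control cells and at 163 and 170 in RBM6-KO1 cells. The lowest control library was above the highest RBM6-KO1 library in both conditions, and the replicates of a group lay far closer to each other than to the other genotype. Untreated RBM6-KO1 cells thus held 4.94-fold less TGM2 mRNA than control cells, a log2 fold change of -2.30 (SE 0.17), and the log2 fold change after IR was -2.16 (SE 0.16).

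THBS1 (ENSG00000137801, chromosome 15, 39581079 to 39599466, plus strand) was measured at 126 and 137 normalized CPM in untreated control cells and at 72.7 and 46.5 in untreated RBM6-KO1 cells. After IR it was at 174 and 313 in control cells and at 68.5 and 130 in RBM6-KO1 cells. In both irradiated groups replicate B was the higher, and the genotypes did not overlap in either condition. The log2 fold change against control cells was -1.15 (SE 0.18) untreated and -1.30 (SE 0.36) after IR. It depended on single libraries, with -0.86 without RBM6-KO1 untreated replicate B and -0.82 after IR without control IR replicate B.

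MYL9 (ENSG00000101335, chromosome 20, 36541497 to 36551447, plus strand) encodes a regulatory light chain of myosin II. It was measured at 53.9 and 57.8 normalized CPM in untreated control cells and at 11.7 and 11.9 in untreated RBM6-KO1 cells. After IR the values were 49.2 and 37.3 in control cells and 11.6 and 8.57 in RBM6-KO1 cells. No library of one genotype came near the other genotype, and the log2 fold change against control cells was -2.26 (SE 0.18) untreated and -2.09 (SE 0.25) after IR.

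MYL9 made up only a small part of the regulatory light chain mRNA. Per kilobase of exons, it held 7.12% ± 0.493 (SD, n = 2) of the summed normalized CPM of MYL9, MYL12A and MYL12B in untreated control cells, against 1.67% ± 0.0316 in untreated RBM6-KO1 cells. The sum over the 3 genes was between 275 and 283 normalized CPM per kilobase in untreated control cells, against 250 to 252 in untreated RBM6-KO1 cells. MYL12B, the most abundant of them, held 70.0% and 70.7% of the sum in control libraries before IR, against 74.8% and 75.2% in RBM6-KO1 libraries. The log2 fold change of MYL12A was -0.12 (SE 0.14, adjusted p = 0.738 from edgeR) and that of MYL12B was -0.08 (SE 0.13, adjusted p = 0.840) in untreated RBM6-KO1 cells.

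**Figure D1:**
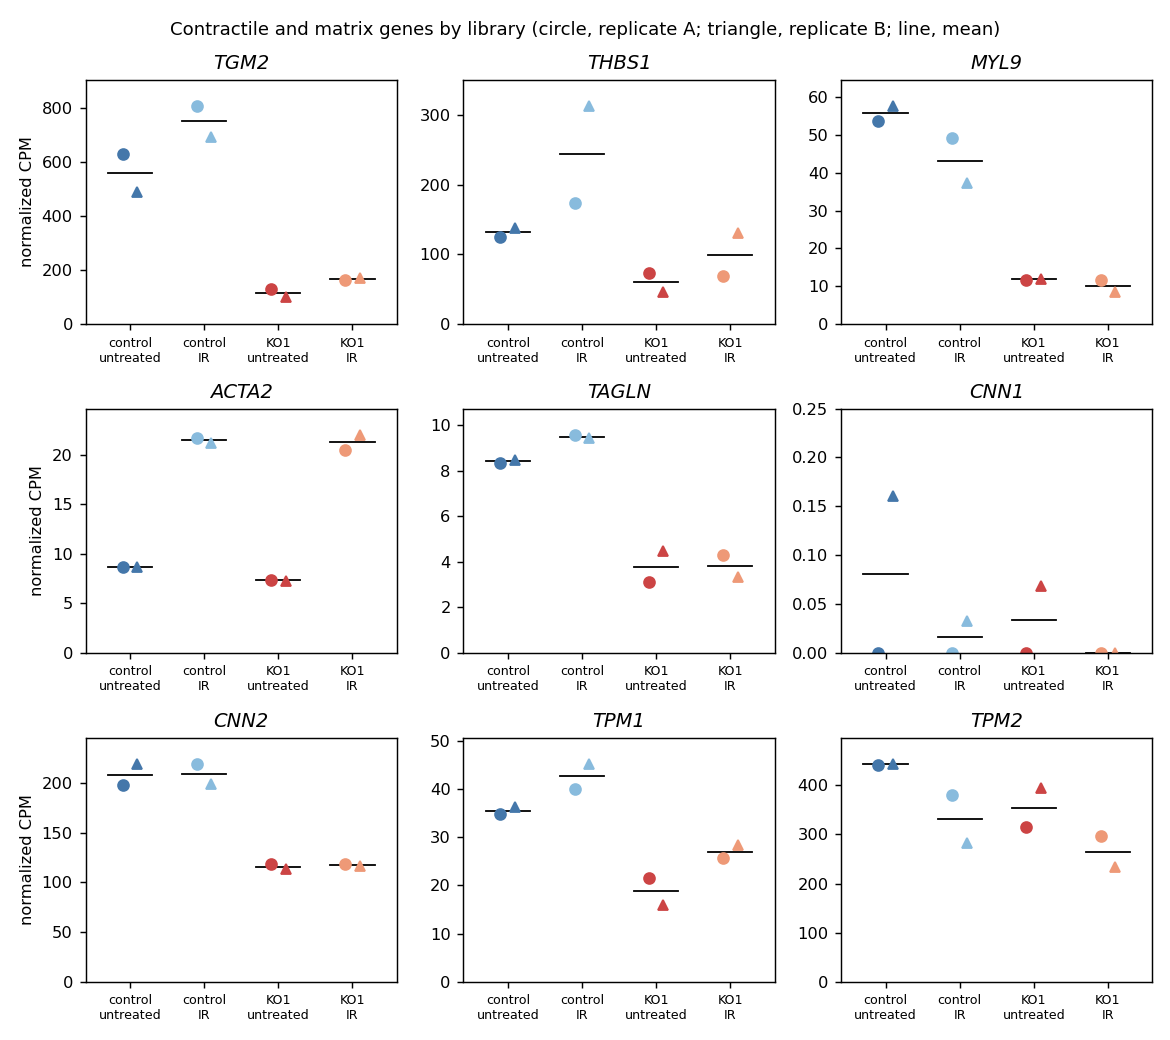
Normalized CPM (vertical axes, starting at 0 and scaled for each gene) of the 9 genes in the 8 libraries, by group. Circles are replicate A, triangles are replicate B and lines are group means. TGM2, MYL9, TAGLN, THBS1, CNN2 and TPM1 are lower in both RBM6-KO1 groups than in the control group of the same condition, ACTA2 is higher after IR in both genotypes, and CNN1 stays at or under 3 counts.

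The actin-binding members were lower by less. TAGLN (ENSG00000149591, chromosome 11, 117199370 to 117207464), or transgelin, was measured at 8.35 and 8.48 normalized CPM in untreated control cells and at 3.10 and 4.49 in untreated RBM6-KO1 cells. After IR it was at 9.58 and 9.43 in control cells and at 4.28 and 3.33 in RBM6-KO1 cells, again without overlap. The log2 fold change was -1.17 (SE 0.27) untreated, or -0.93 without RBM6-KO1 untreated replicate A, and -1.31 (SE 0.25) after IR. These values rest on 55 to 293 counts per library.

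CNN2 (ENSG00000064666, chromosome 19, 1026586 to 1039068), a calponin of non-muscle cells, was measured at 198 and 220 normalized CPM in untreated control cells and at 118 and 114 in untreated RBM6-KO1 cells. After IR the values were 219 and 200 in control cells and 119 and 117 in RBM6-KO1 cells. Its replicates were close, with log2 fold changes of -0.86 (SE 0.14) untreated and -0.82 (SE 0.15) after IR and hardly any difference between irradiated and untreated cells. CNN1 (ENSG00000130176, chromosome 19, 11538767 to 11550323), the smooth muscle calponin, had at most 3 counts in any library and 0 in 5 of the 8, so that no difference was detectable at this depth and no fold is given.

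The promoter of CNN2 is shown because it is the only one among the members' promoters with a strict match to the CArG box, the SRF binding motif. RefSeq promoter windows (GRCh38.p14), from 250 bases before to 50 bases from the start site on, were at hand for 6 of the 9 members in 8 windows, and not used here for TGM2, MYL9 and TAGLN. A strict CArG box on either strand occurs in 1.29% of all 35116 windows and the TATA box, searched as TATAAA, in 11.5%. No member window holds TATAAA. The CNN2 window lies at chr19:1026358-1026657 on the plus strand, and the capitals mark the CArG match, whose first base is at -89 from the start site.
CNN2: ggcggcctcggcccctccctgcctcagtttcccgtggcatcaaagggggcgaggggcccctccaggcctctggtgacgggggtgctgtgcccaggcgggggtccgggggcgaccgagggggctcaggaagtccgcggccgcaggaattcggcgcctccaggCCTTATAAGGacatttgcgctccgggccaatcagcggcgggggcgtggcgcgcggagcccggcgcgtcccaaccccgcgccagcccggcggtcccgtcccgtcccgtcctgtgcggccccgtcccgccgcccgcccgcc

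TPM1 and TPM2 encode tropomyosins, the coiled-coil proteins of the actin filament. TPM1 (ENSG00000140416, chromosome 15, 63042620 to 63071915) was measured at 34.7 and 36.2 normalized CPM in untreated control cells and at 21.6 and 15.9 in untreated RBM6-KO1 cells, and after IR at 39.9 and 45.2 against 25.6 and 28.3. The genotypes did not overlap, and the log2 fold changes were -0.93 (SE 0.19) and -0.65 (SE 0.18). TPM2 (ENSG00000198467, chromosome 9, 35681992 to 35690056) was measured at 442 and 444 normalized CPM in untreated control cells and at 314 and 394 in untreated RBM6-KO1 cells, and after IR at 381 and 282 against 296 and 233. After IR the genotypes overlapped, and the log2 fold changes of TPM2 were -0.34 (SE 0.14) and -0.32 (SE 0.20). Both genes make several isoforms from alternative exons and promoters, which gene counts do not separate.

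Per kilobase of merged exons, TPM2 held the largest share among the tropomyosins. It held 69.3% ± 1.13 (SD, n = 2) of the sum of TPM1, TPM2, TPM3 and TPM4 in untreated control cells. In untreated RBM6-KO1 cells it held 62.2% ± 6.10. TPM1 held 1.17% and 1.24% in the control libraries and 0.579% and 0.861% in the RBM6-KO1 libraries. Merged exons cover all annotated isoforms, 3183 bases for TPM2 and 14700 for TPM1, and the shares depend on these lengths. Before division by length, TPM2 was at 443, TPM4 at 440, TPM3 at 357 and TPM1 at 35.5 normalized CPM in untreated control cells. TPM3 and TPM4 did not pass the test between untreated genotypes, with values of 0.10 (SE 0.14, adjusted p = 0.804 from edgeR) and 0.18 (SE 0.14, adjusted p = 0.579) on the log2 scale.

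ACTA2 (ENSG00000107796, chromosome 10, 88935074 to 88991339, minus strand) encodes smooth muscle alpha-actin, a marker of myofibroblasts and myoepithelial cells. It was measured at 8.72 and 8.64 normalized CPM in untreated control cells and at 7.37 and 7.28 in untreated RBM6-KO1 cells. After IR it was at 21.75 and 21.25 in control cells and at 20.48 and 22.04 in RBM6-KO1 cells. Within a condition its level was nearly the same in both genotypes, with log2 fold changes of -0.26 (SE 0.23) untreated and -0.01 (SE 0.19) after IR. Of the summed level per kilobase of ACTA2, ACTB and ACTG1, ACTA2 made up 0.0678% ± 0.00374 (SD, n = 2) before IR and 0.191% ± 0.0148 after IR in control cells.

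Of the 8 members tested, 4 were at least 2-fold lower in RBM6-KO1 cells in each condition (TGM2, MYL9, TAGLN and THBS1), against a background of 3.61% of all genes tested in untreated cells and 3.50% after IR. All 8 were lower without overlap between the genotypes in untreated cells and 6 were after IR, where this held for 23.9% and 20.2% of all genes tested. Because TGM2 and MYL9 were selected on this contrast and the others with it in view, nothing is read from these counts. TGM2 and MYL9 were the farthest from control, and ACTA2 and TPM2 the nearest.

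**Figure D2:**
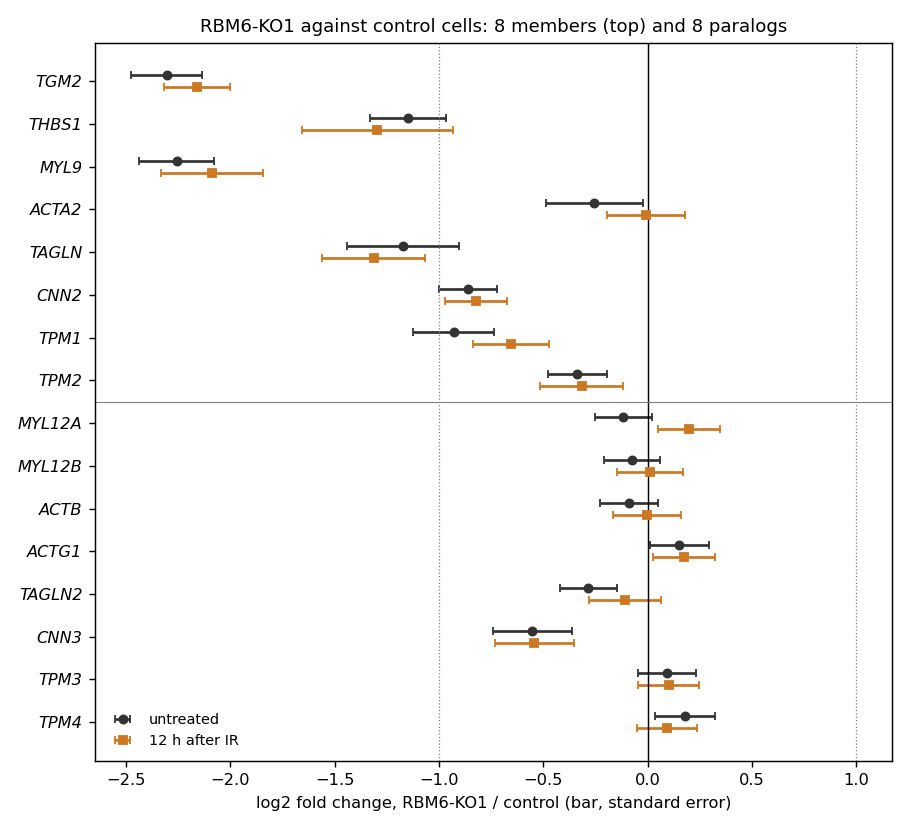
Log2 fold change between RBM6-KO1 and control cells (horizontal axis) of the 8 members with enough counts, above the line, and of 8 paralogs, below it. Circles are untreated cells, squares are cells after IR, bars are standard errors and dotted lines mark 2-fold. TGM2 and MYL9 lie beyond -2 in both conditions, while MYL12A, MYL12B, ACTB, ACTG1, TPM3 and TPM4 lie between -0.12 and 0.20. The other paralogs are lower, CNN3 at -0.55 untreated and -0.54 after IR and TAGLN2 at -0.28 and -0.11.

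The order of the members by level per kilobase of exons differed between the genotypes. TGM2 and MYL9 were selected for being lower in RBM6-KO1 cells, and nothing is read from their change of place. The order also depends on the merged exon lengths. In untreated control cells TPM2 stood highest at 139 ± 0.525 normalized CPM per kilobase (SD, n = 2), followed by TGM2 at 70.0 ± 12.5, CNN2 at 57.3 ± 4.25, MYL9 at 19.9 ± 0.975 and THBS1 at 14.4 ± 0.918. TPM1 followed at 2.41 ± 0.0704, ACTA2 at 1.54 ± 0.0101 and TAGLN at 1.28 ± 0.0137. TGM2 and CNN2 were the only neighbours in this order whose means differed by about as little as their SDs. In untreated RBM6-KO1 cells CNN2, at 31.8 ± 0.874, stood above TGM2, at 14.3 ± 2.64, and THBS1, at 6.51 ± 2.02, stood above MYL9, at 4.19 ± 0.0635. There ACTA2, at 1.30 ± 0.0120, and TPM1, at 1.27 ± 0.277, overlapped. After IR TPM2 and TGM2 overlapped in control cells, at 104 ± 21.8 and 94.3 ± 10.1, and ACTA2 and MYL9 overlapped in RBM6-KO1 cells, at 3.78 ± 0.196 and 3.59 ± 0.765.

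The response to IR was not used in the selection. ACTA2 rose in both genotypes, by 1.30 on the log2 scale in control cells (SE 0.22, Benjamini-Hochberg adjusted p = 0.0102 by the quasi-likelihood test of edgeR) and by 1.52 in RBM6-KO1 cells (SE 0.19, adjusted p = 0.00750 from edgeR). Every irradiated library was above every untreated one. ACTA2 was 1 of 8 members called in each comparison, where a call asks for both an adjusted p under 0.05 and a change of 2-fold or more. In control cells 1.68% of all genes tested were called higher and 1.91% lower after IR, and in RBM6-KO1 cells 1.13% and 1.97%. Among the alternatives run, the call in control cells was lost only without control untreated replicate B, where the log2 fold change was again 1.30 and the adjusted p was 0.0511 from edgeR. Over these alternatives the adjusted p ran from 2.28e-05 to 0.0511.

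Reads at ACTA2 may also belong to other genes. FAS, the death receptor gene on the opposite strand, shares 387 exon bases with ACTA2 (6.88% of its merged exons), the antisense transcript ACTA2-AS1 shares 1638 (29.1%) and the same-strand lncRNA ENSG00000286116 shares 401 (7.13%). Strandedness is not given in the sources used here, so that reads in these stretches cannot be told apart. In control cells FAS was measured at 20.8 ± 2.35 normalized CPM (SD, n = 2) before IR and at 42.7 ± 7.09 after it, and rose by 1.03 on the log2 scale (SE 0.21, adjusted p = 0.0202 from edgeR). In RBM6-KO1 cells it was higher after IR by 0.93 on the log2 scale (SE 0.18, adjusted p = 0.0262), which is under 2-fold. ACTA2-AS1 had 1 to 8 counts per library. The part of FAS reads in the rise of ACTA2 was not tested.

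The ACTA2 window at its downstream start site is shown because ACTA2 is the member that responded to IR. It holds no strict CArG box, but 2 matches in which 1 of the 6 inner bases is C or G, a looser search that was chosen after the windows were read and that finds a match in 6.94% of all windows. The window lies at chr10:88952724-88953023 on the minus strand, and the capitals mark both matches, whose first bases are at -121 and -71 from the start site. No other member window holds a match of this kind.
ACTA2: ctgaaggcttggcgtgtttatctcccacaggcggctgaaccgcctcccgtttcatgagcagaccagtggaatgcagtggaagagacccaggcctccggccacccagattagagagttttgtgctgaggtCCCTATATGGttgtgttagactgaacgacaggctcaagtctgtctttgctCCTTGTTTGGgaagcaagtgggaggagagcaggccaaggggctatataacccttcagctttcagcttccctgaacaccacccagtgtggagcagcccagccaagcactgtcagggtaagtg

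THBS1 was higher after IR in control cells by 0.88 on the log2 scale (SE 0.23, adjusted p = 0.0480 from edgeR), which is under 2-fold, and in RBM6-KO1 cells by 0.72 (SE 0.29, adjusted p = 0.141), with overlap between the RBM6-KO1 groups. A single library set these values. Without control IR replicate A the log2 fold change in control cells was 1.26 and without control IR replicate B it was 0.40. In RBM6-KO1 cells it was 1.13 without RBM6-KO1 IR replicate A, 1.09 without RBM6-KO1 untreated replicate A and 0.19 without RBM6-KO1 IR replicate B. Each of these fits leaves 1 library in a group, so that only the size is given.

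TGM2 did not pass the test in either genotype, with log2 fold changes after IR of 0.42 in control cells (SE 0.18, adjusted p = 0.176 from edgeR) and 0.54 in RBM6-KO1 cells (SE 0.17, adjusted p = 0.0776). The irradiated libraries of each genotype were all above the untreated ones. The libraries of MYL9, TPM1 and TPM2 did not overlap between conditions in either genotype, and those of TAGLN and THBS1 did not in control cells. The share of all genes without such overlap is not given here, and nothing is read from it. MYL9 had log2 fold changes of -0.38 (SE 0.19, adjusted p = 0.235) and -0.24 (SE 0.22, adjusted p = 0.489), and TPM2 of -0.43 (SE 0.18, adjusted p = 0.165) and -0.44 (SE 0.18, adjusted p = 0.135). TPM1 had 0.26 (SE 0.18, adjusted p = 0.404) and 0.51 (SE 0.20, adjusted p = 0.135). TAGLN had 0.17 (SE 0.24, adjusted p = 0.691) in control cells, and CNN2 had -0.0039 (SE 0.16, adjusted p = 0.992).

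The response to IR was also compared between the genotypes by an interaction contrast over all 8 libraries. None of the 8 members passed, and neither did any of the 16549 genes tested (0%), of which 306 had an unadjusted p under 0.05 in edgeR. The differences in log2 fold change between RBM6-KO1 and control cells were 0.13 for TGM2 (SE 0.24), 0.15 for MYL9 (SE 0.28), 0.23 for ACTA2 (SE 0.24) and -0.16 for THBS1 (SE 0.46), each with an adjusted p of 0.99998 from edgeR. For TPM1 it was 0.26 (SE 0.26), for TAGLN -0.16 (SE 0.34), for CNN2 0.02 (SE 0.18) and for TPM2 -0.0044 (SE 0.26). The SE of THBS1, in which replicate B stood apart after IR, was the widest. Differences between genotypes larger than these errors could also be missed after adjustment over 16549 genes. The test therefore does not show that the responses were the same.

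**Figure D3:**
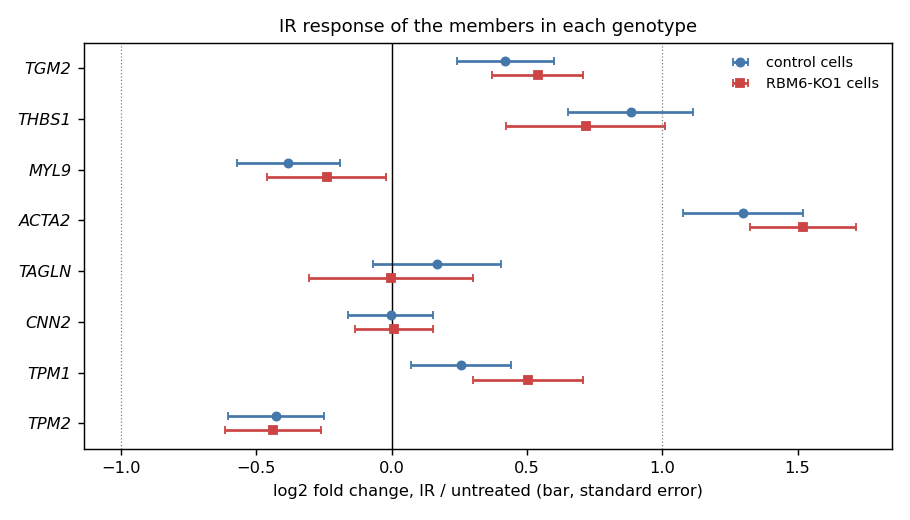
Log2 fold change after IR (horizontal axis) of the 8 members in control cells (blue circles) and RBM6-KO1 cells (red squares), with standard errors as bars and dotted lines at 2-fold. ACTA2 lies beyond 1 in both genotypes, THBS1 at 0.88 and 0.72 and TPM2 at -0.43 and -0.44.

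The other contractile and SRF-linked genes were examined as a list of 35, of which 31 passed the filter (ACTA1, ACTC1, ACTG2 and LMOD1 did not). None was called in RBM6-KO1 cells in either condition, where 1.97% of all genes tested were called lower and 1.16% higher untreated, and 0.815% and 0.353% after IR. With the adjusted p alone, which 6.12% of all genes passed in untreated cells, 2 of the 31 passed. These were ROCK1 and ROCK2, the kinases that activate myosin downstream of RhoA, and both were higher, at 0.88 (SE 0.19, adjusted p = 0.00627 from edgeR) and 0.96 on the log2 scale (SE 0.17, adjusted p = 0.00187). The median log2 fold change of the list was -0.0005 untreated and -0.001 after IR, beside 0.007 and 0.015 over all genes tested. The nearest relatives of the members were ACTB at -0.09 (SE 0.14), ACTG1 at 0.15 (SE 0.14), TAGLN2 at -0.28 (SE 0.14) and CNN3 at -0.55 (SE 0.19) in untreated cells, with adjusted p-values of 0.819, 0.648, 0.277 and 0.108 from edgeR. The transcription factor gene SRF had -0.18 (SE 0.16, adjusted p = 0.627) and its cofactor gene MRTFA -0.30 (SE 0.16, adjusted p = 0.328).

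After IR, 1 of these 31 genes was called higher in control cells and 2 were called lower in RBM6-KO1 cells. Of all genes tested, 1.68% were called higher in control cells and 1.97% lower in RBM6-KO1 cells. In control cells MYLK, the myosin light chain kinase, rose from 1.91 ± 0.708 to 4.97 ± 0.163 normalized CPM (SD, n = 2), which is 1.36 on the log2 scale (SE 0.33, adjusted p = 0.0391 from edgeR), and this call was lost without control untreated replicate A (1.01, adjusted p = 0.232). ROCK1 fell from 131 ± 39.2 to 50.3 ± 11.4 in RBM6-KO1 cells (-1.40, SE 0.23, adjusted p = 0.0168), and had -0.82 (SE 0.19, adjusted p = 0.0336) in control cells. PDLIM7, a LIM protein of stress fibres, fell from 276 ± 41.3 to 139 ± 23.9 in RBM6-KO1 cells (-1.01, SE 0.18, adjusted p = 0.0201), and had -0.86 (SE 0.17, adjusted p = 0.0195) in control cells. The PDLIM7 call was lost without RBM6-KO1 untreated replicate B (-0.84) and without RBM6-KO1 IR replicate B (-0.83), since both fell under 2-fold. The median of the list was -0.12 in control cells and -0.16 in RBM6-KO1 cells, beside 0.02 and -0.01 over all genes, and 21 of 31 were below 0 in each. As no gene passed the interaction test, a difference between the genotypes in these responses was not shown.

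Of the 32 TGF-beta pathway and response genes, 31 passed the filter. In untreated RBM6-KO1 cells 2 of them were called lower and none higher, beside 1.97% and 1.16% of all genes tested. TGFB2, one of the 3 TGF-beta ligands, fell from 35.7 ± 1.21 to 8.03 ± 0.671 normalized CPM (SD, n = 2), a log2 fold change of -2.16 (SE 0.20, adjusted p = 2.29e-06 from edgeR). PMEPA1, a TGF-beta induced inhibitor of the pathway, fell from 142 ± 0.890 to 50.1 ± 2.55 (-1.52, SE 0.14, adjusted p = 3.58e-06). The other ligands did not pass, with -0.21 for TGFB1 (SE 0.13, adjusted p = 0.472) and 0.90 for TGFB3 (SE 0.33, adjusted p = 0.130). The adjusted p alone was under 0.05 for 9 of the 31, of which 8 were lower, beside 6.12% of all genes tested in either direction. Among them were the basement membrane collagens COL4A1 (-0.77, SE 0.18, adjusted p = 0.0148) and COL4A2 (-0.82, SE 0.14, adjusted p = 0.00152), the integrin subunit ITGB6 (-0.82, SE 0.23, adjusted p = 0.0367), the transducer SMAD3 (-0.54, SE 0.15, adjusted p = 0.0416) and the target ID1 (-0.57, SE 0.14, adjusted p = 0.0181).

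After IR PMEPA1 was again lower in RBM6-KO1 cells (-1.27, SE 0.15, adjusted p = 0.0151 from edgeR). TGFB2 did not pass, at 15.3 ± 7.79 against 52.3 ± 26.0 (-1.78, SE 0.44, adjusted p = 0.143). The median of the list was -0.21 untreated and -0.04 after IR, beside 0.007 and 0.015 over all genes tested. After IR 16 of the 31 were below 0 and 15 above it.

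The TGF-beta list was mostly above 0 after IR, with 20 of 31 genes and a median of 0.30 in control cells and 26 of 31 and a median of 0.33 in RBM6-KO1 cells, beside medians of 0.02 and -0.01 over all genes tested. None was called in control cells, where the adjusted p alone was under 0.05 for 3 of 31 beside 5.72% of all genes. In RBM6-KO1 cells 1 was called higher, beside 1.13% of all genes tested, and none besides it passed the adjusted p alone, which 5.67% of all genes did. TGFBR2, the ligand-binding receptor, rose there from 171 ± 58.5 to 444 ± 135 normalized CPM (SD, n = 2), a log2 fold change of 1.36 (SE 0.26, adjusted p = 0.0261 from edgeR), and had 0.90 (SE 0.19, adjusted p = 0.0246) in control cells.

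Among 14 genes related to TGM2 or THBS1 by family or binding, 8 or 9 passed the filter between genotypes and 7 or 9 after IR. Those that passed in no comparison were TGM3, TGM5, F13A1, CD36 and COMP. Between untreated genotypes 1 of 8 was called lower, beside 1.97% of all genes tested. ADGRG1, an adhesion receptor that binds TGM2, was called lower in untreated RBM6-KO1 cells, from 25.4 ± 2.80 to 12.7 ± 0.0489 normalized CPM (SD, n = 2, log2 fold change -1.02, SE 0.20, adjusted p = 0.00324 from edgeR), and fell under 2-fold without control untreated replicate B (-0.89). After IR it had -0.83 (SE 0.19, adjusted p = 0.111), and no gene of this list was called between the genotypes. TGM1, the epidermal transglutaminase, had 0.09 (SE 0.28, adjusted p = 0.916) in untreated cells.

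In response to IR, ITGB1, the beta-1 integrin subunit to which TGM2 binds, was called higher in control cells (1.01, SE 0.23, adjusted p = 0.0304 from edgeR), and the call was lost without control untreated replicate B (0.89, adjusted p = 0.145) and without control IR replicate B (0.58). THBS3 was called lower (-1.08, SE 0.24, adjusted p = 0.0271), and the call was lost without control untreated replicate B (-0.84, adjusted p = 0.288). Each was 1 of 7 genes of this list tested in control cells, where 1.68% of all genes were called higher and 1.91% lower. In RBM6-KO1 cells 1 of 9 was called higher, beside 1.13% of all genes. There ITGB1 had 1.09 (SE 0.28, adjusted p = 0.0520) and THBS3 -0.75 (SE 0.24, adjusted p = 0.0788). ITGB3 was called higher there, from 0.384 ± 0.254 to 1.90 ± 0.499 normalized CPM (SD, n = 2, log2 fold change 2.23, SE 0.55, adjusted p = 0.0485), and this call was lost without RBM6-KO1 untreated replicate B (1.74, adjusted p = 0.174) and without RBM6-KO1 IR replicate B (1.95, adjusted p = 0.188).

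TGM2 and MYL9 are both on chromosome 20, with their starts 1.63 Mb apart, and PMEPA1 and ID1 are on it as well. Over the 417 other tested genes of chromosome 20 the median log2 fold change was -0.27 between untreated genotypes, and 321 of them were below 0. Of these 417, 20 were called lower and 3 higher, beside 1.97% and 1.16% of all genes tested. After IR the median of 415 genes was -0.25, and 331 were below 0. Of these 415, 11 were called lower and 1 higher, beside 0.815% and 0.353% of all genes tested. The medians of the other chromosomes lay between -0.06 and 0.11 untreated and between -0.06 and 0.12 after IR. The 38 tested genes within 1 Mb of TGM2 or MYL9 had a median of -0.18 untreated, 30 of them were below 0 and none was called by edgeR. After IR the 39 tested genes there had a median of -0.31, 33 were below 0 and none was called. None of the 38 neighbours tested in both conditions differed by 2-fold in both, their log2 fold changes running from -0.75 to 0.42 untreated and from -0.86 to 0.18 after IR. Relative to the chromosome's median, a comparison added after the data were seen, TGM2 stood at -2.04 on the log2 scale untreated and at -1.91 after IR, and MYL9 at -1.99 and -1.84. DNA copy number was not measured in these libraries, and its part in the values of TGM2 and MYL9 was not tested.

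**Figure D4:**
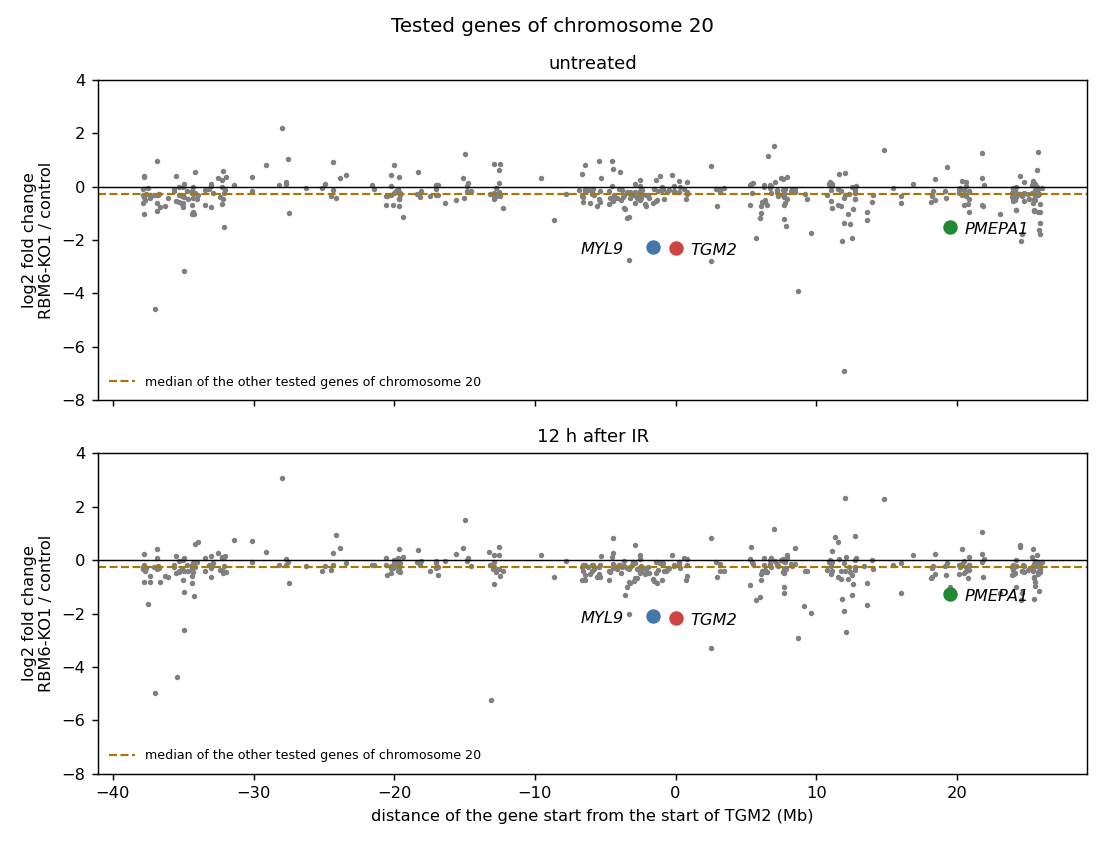
Log2 fold change between RBM6-KO1 and control cells (vertical axes) of the tested genes of chromosome 20 by the distance of their start from that of TGM2 in Mb (horizontal axis), untreated (top) and after IR (bottom). Each point is a gene, and the dashed line is the median of the chromosome's other genes, at -0.27 and -0.25. TGM2, MYL9 and PMEPA1 lie well below this line in both panels.

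The genes whose log2 CPM over the 8 libraries was most like that of TGM2, among 16549 genes, were DMBT1 (Pearson r = 0.997), LAMP3 (r = 0.993) and GRAMD1B (r = 0.992). Those most like MYL9 were FDPS (r = 0.997), ST14 (r = 0.991) and UAP1L1 (r = 0.990). None of these 6 lies on chromosome 20, and nothing is read from this. Between untreated genotypes 15556 genes were tested, of which 417 besides TGM2 and MYL9 lie on that chromosome. TGM2 and MYL9 correlated with each other at r = 0.919. Both were selected for being lower in RBM6-KO1 cells, which favours a high r, and nothing is read from it. These are descriptions over 8 libraries that share their groups and their depth.

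Overlapping annotations limit some of the other members. TAGLN shares 2498 exon bases (38.1%) with the unreviewed same-strand gene ENSG00000280143 and 2233 (34.1%) with PCSK7 on the opposite strand. PCSK7 was measured at 29.6 to 50.5 normalized CPM and had a log2 fold change of -0.06 (SE 0.16, adjusted p = 0.900 from edgeR) in untreated RBM6-KO1 cells, while ENSG00000280143 had at most 2 counts in any library. TPM1-AS, which shares 2645 exon bases (18.0%) with TPM1, had at most 4 counts. RPRD1B shares 396 exon bases (4.98%) with TGM2 and had -0.15 (SE 0.18, adjusted p = 0.747). No exact stretch of 75 bases of TGM2, THBS1, MYL9, CNN2 or TPM2 transcripts occurred in another annotated gene, and in TPM1 0.217% of such stretches did. For TAGLN 35.6% did, in ENSG00000280143, and for ACTA2 5.67% did, in ENSG00000286116. The values of TAGLN and ACTA2 are therefore less certain than those of TGM2 and MYL9.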

How the data were processed

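RNA was extracted with TRIzol from 8 samples of MCF10A-Hras cells, and TruSeq mRNA libraries were read as 150-base pairs. The authors deposited raw read counts per Ensembl gene, without normalization. The submitters' processing notes name STAR, DESeq2 and hg38, without versions. The counting tool, annotation and strandedness are not given in the sources used here. GENCODE v44 (GRCh38) holds symbols, positions and exon lengths for 57392 of the gene identifiers.

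The analysis used edgeR 4.0.16 (with limma 3.58.1) under R 4.3.3, and DESeq2 1.42.0 as an alternative. The 4 libraries of each comparison were fitted alone, with TMM normalization, filterByExpr and the quasi-likelihood test, two-sided, and Benjamini-Hochberg adjustment over all genes tested. The interaction used all 8. The SE is the size of the log2 fold change divided by the square root of F. Levels per kilobase used merged exon lengths. The code was tested on simulated data. 1 gene of the TGF-beta list is counted in that list but not reported here. The members and gene lists were chosen with earlier results of these data known. Genes named were the members, RBM6, called list genes, the 3 genes most like TGM2 or MYL9, and neighbours within 1 Mb that differed 2-fold in both conditions. Paralogs, FAS, PCSK7, RPRD1B, SRF, MRTFA, TGM1, the cell markers given with their own values and list genes past the adjusted p alone or near it were named after their values were seen. With 2 libraries per group no permutation test can reach a p under 0.05. Alternatives were other normalizations, filters, tests, call rules, a replicate block, a fit of all libraries and fits without each library.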

Additional observations from a re-analysis of the deposited data

How the results depend on the processing

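The direction of no result that exceeded its SE reversed under any alternative run. With the adjusted p alone, in place of the 2-fold limit beside it, the contractile list had 2 calls between untreated genotypes, 4 after IR in control cells and 5 after IR in RBM6-KO1 cells, the TGF-beta list had 9 between untreated genotypes and 3 after IR in control cells, and the members had 2 after IR in control cells. With at least 10 counts in every library the TGF-beta list had 1 call between genotypes after IR. The contractile list had 2 calls after IR in control cells with that filter, with no filter, with DESeq2 size factors and with upper-quartile factors, and 1 call after IR in RBM6-KO1 cells with DESeq2's Wald test and with all 8 libraries in 1 fit. The cause was not tested, other than by the construction of each setting.

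When each library was left out in turn, so that the lone library of a group is assumed to vary like the others, the members at least 2-fold lower in RBM6-KO1 cells numbered 3 to 4 in both conditions, and the members called after IR 0 to 2 in control cells and 1 to 2 in RBM6-KO1 cells. Calls in the contractile list were 0 to 2 between untreated genotypes, 0 to 3 after IR in control cells and 1 to 5 after IR in RBM6-KO1 cells. Calls in the TGF-beta list were 2 to 5 between untreated genotypes, 2 to 4 between irradiated ones, 0 to 4 after IR in control cells and 1 to 6 after IR in RBM6-KO1 cells.

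The labels do not say what the letters A and B share. Deviations of same-lettered libraries from their group means correlated at 0.08 between untreated genotypes, 0.35 between irradiated ones, -0.18 in control cells and -0.26 in RBM6-KO1 cells, over 16549 genes. With the letter as a replicate block TGM2 had a log2 fold change of -2.31 untreated and -2.15 after IR, the TGF-beta list had 3 calls between irradiated genotypes in place of 2, and ITGB1 fell under 2-fold (0.97) in control cells. No other call moved. Depth limits CNN1, which stayed at or under 3 counts.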
